A study of Drosophila melanogaster with 9 samples.

Results

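The imaginal disc growth factors (Idgfs) of *Drosophila melanogaster* were followed in BG3 cells depleted of the Polycomb group protein Polyhomeotic (Ph), in mock-treated BG3 cells and in wing imaginal discs. Members were chosen by gene symbol, as every probe set whose single symbol in the platform annotation is Idgf and a digit. This gave 7 of 18768 probe sets and 6 of 11982 genes, *Idgf1* to *Idgf6*, with 2 probe sets for *Idgf3* and 1 for each other gene. The family was taken up with the Ph RNAi minus Mock RNAi differences and the wing disc levels of these same arrays in view, so its values are given as a description, without a test.

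Messenger RNA was measured on 9 Affymetrix Drosophila Genome 2.0 arrays, 3 for each of 3 groups. Wing imaginal discs, the larval sacs that form the adult wing and thorax, came from late last-instar larvae of the *yw* stock, with 12 to 15 discs of both sexes pooled per replicate. Ph RNAi BG3 cells received 10 µg of double-stranded RNA (dsRNA) per well for 5 days, directed at sequence that *ph-p* and *ph-d* have in common. Mock RNAi BG3 cells were the control. A dsRNA with no target was given to none of the groups, so what dsRNA does by itself and what the loss of Ph does cannot be told apart. BG3 is an established male line from the larval central nervous system, and both BG3 groups were grown with insulin in the medium, a hormone with which Idgf proteins cooperate in culture. The *ph-p* and *ph-d* transcripts were not analysed here, and the extent of the depletion is therefore not given.

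Idgfs are secreted proteins with the fold of the glycoside hydrolase family that contains the chitinases, but they lack the residue needed to cut chitin. They were first found in medium conditioned by imaginal disc cells, where they promote proliferation, polarity and movement of such cells. In the larva they are made largely by the fat body, the fat-storing and secretory organ, and by hemocytes, the blood cells, and they take part in clotting, wound closure and cuticle formation.

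Expression is given as log2 values made with GCRMA. The values of the arrays form 2 modes, a lower one of weak or background signal and an upper one. In BG3 cells the lower mode peaked at 1.85, the upper at 8.87 and the trough between them lay at 4.87, against 0.555, 6.90 and 3.07 in wing discs. Array medians were 0.827 to 0.842 in wing discs, 2.22 to 2.23 in Ph RNAi and 2.21 to 2.23 in Mock RNAi, so the wing disc arrays were taken as normalized apart from the BG3 arrays. Wing disc and BG3 values were therefore compared by percentile, the share of all other probe sets of the same array with a lower value, or by mode. Where log2 levels of wing discs stand beside those of BG3 cells, each is on its own scale and no difference is taken between them. Replicates correlated at 0.997 to 0.998 in wing discs, 0.990 to 0.994 in Ph RNAi and 0.992 to 0.997 in Mock RNAi. Actin probes at the 3′ end exceeded those at the 5′ end by 3.12 to 3.34 in wing discs, 1.38 to 2.06 in Ph RNAi and 1.73 to 2.26 in Mock RNAi (log2), a measure of RNA length whose part in the results was not tested.

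Fat body markers differed between the wing disc arrays. All 7 fat body markers measured were highest in wing disc replicate 1, by 0.23 to 4.37 (log2) over the higher of the other 2 arrays. *Lsp2*, a storage protein of the fat body, had 8.71, 5.68 and 2.34 in wing disc replicates 1, 2 and 3, and *Fbp1*, the receptor for such proteins, had 7.42, 3.04 and 0.79. The summed level of the 7 markers was 10.0, 7.48 and 6.58 (log2) in these replicates, so replicate 2 also stood above replicate 3. All 7 Idgf probe sets were also highest in wing disc replicate 1, as were 36.7% of all probe sets. The excess over the higher of the other 2 arrays was 0.09 to 1.04 (log2) among the Idgf probe sets. The largest was that of *Idgf6*, an excess that 0.208% of all probe sets reached. The part of fat body RNA in the Idgf levels was not tested. Each percentile difference between wing disc and Mock RNAi is given below with and without wing disc replicate 1. Leaving out that array does not remove all signal of fat body markers.

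The *Idgf1*, *Idgf2* and *Idgf3* genes are neighbours in that order on chromosome arm 2L, with *CG5888* before and *dac* after them among protein-coding genes in RefSeq (assembly Release 6 plus ISO1 MT). *Idgf4* lies on the X chromosome, and *Idgf5* and *Idgf6* lie at separate places on 2R. RefSeq lists 1, 3 and 4 transcripts for *Idgf1*, *Idgf2* and *Idgf3*, 3 for *Idgf4*, 1 for *Idgf5* and 2 for *Idgf6*. The array names no build, so coordinates are not given.

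In BG3 cells *Idgf3* showed the largest difference of the family between Ph RNAi and Mock RNAi. Idgf3 is a secreted member that takes part in hemolymph clotting and wound repair. The probe set that stood for the gene had 9.09, 9.52 and 9.90 (log2) in the 3 Ph RNAi arrays, against 5.82, 7.24 and 6.96 in the 3 Mock RNAi arrays. The groups did not overlap, with 1.85 between the lowest Ph RNAi and the highest Mock RNAi array, and all 6 values lay in the upper mode. The means were 9.50 ± 0.41 in Ph RNAi and 6.67 ± 0.75 in Mock RNAi (SD, n = 3 each), a difference of 2.83 ± 0.37 (SE, 95% interval 2.02 to 3.65) or 7.12-fold. The second probe set of *Idgf3* had 4.76, 4.87 and 6.37 in Ph RNAi and 2.53, 2.78 and 2.96 in Mock RNAi. Here too the groups did not overlap, and Ph RNAi replicate 3 was well above the other 2 Ph RNAi arrays. The Mock RNAi values of this probe set were all in the lower mode, while 1 of 3 Ph RNAi values passed the trough. Its difference was 2.58 ± 0.39 (SE, 95% interval 1.73 to 3.43) or 5.97-fold, from means of 5.33 ± 0.90 in Ph RNAi and 2.76 ± 0.22 in Mock RNAi (SD). Both *Idgf3* probe sets thus differed in the same direction, and over the 6 BG3 arrays they correlated at 0.945 (Pearson), a value that contains the difference between the groups. Among the 11982 genes, 117 had a Ph RNAi minus Mock RNAi difference at least as large as that of *Idgf3*.

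*Idgf2*, between *Idgf1* and *Idgf3* on the chromosome, encodes one of the members shown to stimulate disc cells in culture. It had 6.05, 6.48 and 5.39 in Ph RNAi, against 4.77, 6.03 and 6.54 in Mock RNAi. The ranges overlapped, and 1 Mock RNAi array lay below the trough while the other 5 lay above it. The difference was 0.19 ± 0.45 (SE), with a 95% interval from -0.81 to 1.19, so that a change of up to 1.19 on the log2 scale in the direction of *Idgf3* lies within the error. *Idgf1*, the member at the other end of this group of genes, had 2.49, 3.13 and 3.10 in Ph RNAi and 1.91, 2.05 and 2.40 in Mock RNAi. All 6 values stayed in the lower mode, and the groups were separated by 0.10. The means were 2.91 ± 0.36 in Ph RNAi and 2.12 ± 0.25 in Mock RNAi (SD, n = 3 each), a difference of 0.79 ± 0.21 (SE, 95% interval 0.32 to 1.25) or 1.73-fold. In the lower mode GCRMA compresses differences, so this fold depends on the background correction.

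**Figure D1:**
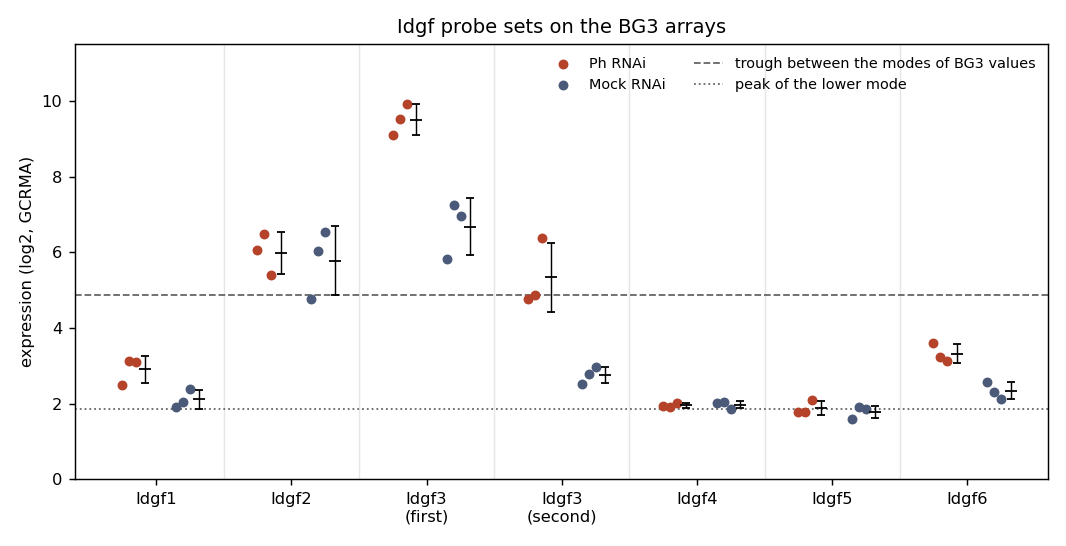
Log2 expression (GCRMA) of the 7 Idgf probe sets on the Ph RNAi (left in each column) and Mock RNAi (right) BG3 arrays, with points for arrays and bars for mean ± SD (n = 3 each). The Ph RNAi points lie above all Mock RNAi points for *Idgf1*, both *Idgf3* probe sets and *Idgf6*, and only *Idgf2* and *Idgf3* have means above the trough at 4.87.

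*Idgf6*, known as DS47 from the medium of a macrophage-like cell line, had 3.61, 3.23 and 3.12 in Ph RNAi, against 2.57, 2.32 and 2.13 in Mock RNAi. The groups were 0.55 apart, and every value was in the lower mode. The means were 3.32 ± 0.26 in Ph RNAi and 2.34 ± 0.22 in Mock RNAi (SD, n = 3 each), a difference of 0.98 ± 0.20 (SE, 95% interval 0.53 to 1.43) or 1.97-fold. *Idgf4*, the X-linked member, had 1.93, 1.91 and 2.02 in Ph RNAi and 2.02, 2.04 and 1.86 in Mock RNAi. These 6 values lay within 0.17 of each other beside the lower peak at 1.85, with a difference of -0.02 ± 0.11 (SE, 95% interval -0.27 to 0.23). *Idgf5* had 1.78, 1.77 and 2.11 in Ph RNAi and 1.61, 1.90 and 1.86 in Mock RNAi. Its groups overlapped at the same low level, with a difference of 0.10 ± 0.13 (SE, 95% interval -0.20 to 0.39). At that level a decrease could not have been seen. A probe set that names both *CG4982* and *Idgf4* was left out by the rule. It had 1.81, 1.64 and 1.71 in Ph RNAi and 1.44, 1.84 and 1.90 in Mock RNAi, and 0.64, 0.73 and 0.78 in wing discs, where the probe set of *Idgf4* alone was in the upper mode.

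**Figure D2:**
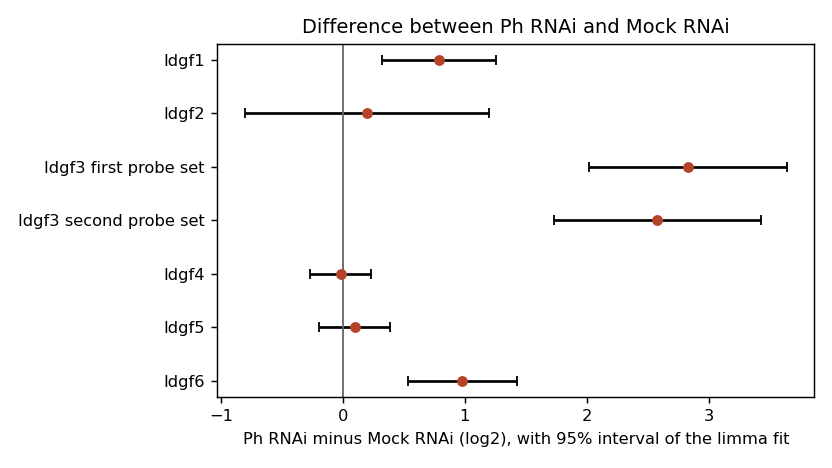
Ph RNAi minus Mock RNAi difference (log2) of each Idgf probe set, with the 95% interval of the limma fit over 3 and 3 arrays. The intervals of *Idgf1*, both *Idgf3* probe sets and *Idgf6* lie above 0, and those of *Idgf2*, *Idgf4* and *Idgf5* include 0.

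The position of a member within an array depends on the brightness of its own probes as well as on its transcript, and positions are set side by side for 1 member at a time. *Idgf3* lay at the 87.9 ± 2.4 percentile of the Ph RNAi arrays by its first probe set, against 72.7 ± 2.9 in Mock RNAi, and at 68.1 ± 2.7 against 59.5 ± 1.8 by its second. *Idgf2* lay at 70.2 ± 2.2 in Ph RNAi and 69.7 ± 2.7 in Mock RNAi. *Idgf6* lay at 61.9 ± 1.0 in Ph RNAi and 52.6 ± 5.8 in Mock RNAi, and *Idgf1* at 59.6 ± 2.6 and 43.0 ± 11.9. *Idgf4* lay at 35.8 ± 4.1 in Ph RNAi and 36.5 ± 5.9 in Mock RNAi, and *Idgf5* at 30.0 ± 13.1 and 24.0 ± 11.7 (SD, n = 3 each). The trough corresponded to percentiles of 66.5 to 66.9 in Ph RNAi and 66.7 to 67.0 in Mock RNAi, and below it the order of values has little meaning.

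With limma and an adjusted p under 0.05 over all genes, 384 genes, or 3.2%, were called higher in Ph RNAi and 188, or 1.57%, lower. Of the 6 Idgf genes, 2 were called higher, *Idgf3* and *Idgf6*, and 0 lower. All 3 Ph RNAi arrays were above all 3 Mock RNAi arrays for 8.94% of all probe sets and for 4 of the 7 Idgf probe sets. Since the contrast took part in the choice of the family, nothing is read from these counts. *Idgf3* was called under each alternative run, while the call of *Idgf6* was lost without Ph RNAi replicate 1 (a difference of 0.84), Mock RNAi replicate 2 (0.97) or Mock RNAi replicate 3 (0.88), and *Idgf1* was called without Ph RNAi replicate 1 (1.00). The titles call the replicates biological but say nothing more on separate cultures, so a p-value here reflects how far these samples scatter, which may be technical scatter in part. In bulk RNA, fewer cells of a type and less RNA per cell cannot be told apart.

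Correlations over the 6 BG3 arrays contain the group differences given above, which took part in the choice of the family, and are a description. *Idgf1* correlated with the first *Idgf3* probe set at 0.906 (Pearson), while *Idgf2* correlated with it at 0.319 and with *Idgf1* at 0.341. *Idgf6*, on another chromosome arm, correlated with *Idgf3* at 0.779. The genes on both sides of the group also differed from each other. *CG5888* had 10.87, 10.60 and 10.44 in Ph RNAi and 10.32, 10.70 and 10.93 in Mock RNAi, overlapping ranges with a difference of -0.02 ± 0.20 (SE, adjusted p = 0.984). *dac*, or dachshund, a nuclear factor of eye, leg and brain development, had 4.46, 3.55 and 5.41 in Ph RNAi and 2.09, 2.73 and 2.13 in Mock RNAi. Its difference was 2.15 ± 0.40 (SE, limma adjusted p = 0.0101), and it was called under all alternatives that measured it. The Mock RNAi values of *dac* were in the lower mode, as were its Ph RNAi values except the 5.41 of replicate 3. The size of its change therefore depends on the background correction. The groups thus overlapped for *CG5888* and *Idgf2* and were apart for *Idgf1*, *Idgf3* and *dac*. None of the neighbours of the other members was called. Their group means, from 1.51 (*BomS6*, Ph RNAi) to 2.84 (*GstE10*, Ph RNAi), all lay below the trough at 4.87. GCRMA compresses differences among such weak signals, so a change in these genes could have been missed. The difference was -0.27 for *CG1986* and -0.10 for *CG1791* beside *Idgf4*, -0.06 for *BomS6* and 0.11 for *GstE10* beside *Idgf5*, and -0.42 for *Pgant9* and -0.03 for *Sfp53D* beside *Idgf6*.

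**Figure D3:**
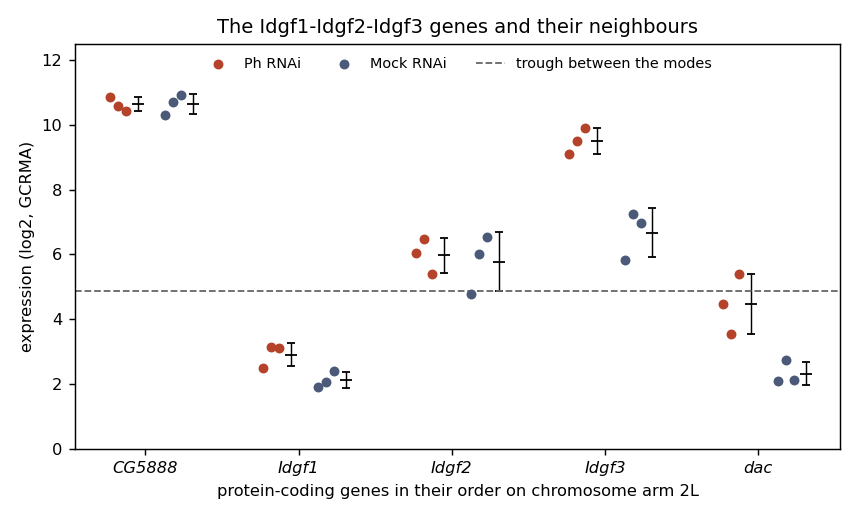
Log2 expression (GCRMA) of *Idgf1*, *Idgf2* and *Idgf3* and the protein-coding genes on either side, in their order on 2L, on the Ph RNAi (left in each column) and Mock RNAi (right) arrays, with points for arrays and bars for mean ± SD (n = 3 each). The groups are apart for *Idgf3* (a difference of 2.83) and *dac* (2.15) and overlap for *CG5888* and *Idgf2*.

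In wing discs the family was arranged differently. *Idgf4* was the member in the upper mode on all 3 wing disc arrays, at 8.07, 7.65 and 7.98 (log2), where the BG3 arrays had it beside the lower peak. Its percentile was 90.2, 87.5 and 89.7 in wing discs, against 34.5, 32.5 and 40.3 in Ph RNAi and 38.8, 40.9 and 29.8 in Mock RNAi. The wing disc percentiles lay above those of both BG3 groups with no overlap, by 53.4 points over Ph RNAi and 52.7 over Mock RNAi. Without wing disc replicate 1, the array with the highest fat body markers, the difference from Mock RNAi was 52.1 points. A difference of at least the size of that of *Idgf4* was found for 174 probe sets, or 0.927%.

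*Idgf3* and *Idgf2* had the opposite arrangement, in the lower mode of wing discs and the upper mode of Mock RNAi. The first *Idgf3* probe set had 1.87, 1.33 and 1.27 (log2) in wing discs, at percentiles of 60.4, 57.9 and 57.5, against 69.5, 74.9 and 73.8 in Mock RNAi. The wing disc minus Mock RNAi difference was -14.1 points, and -15.0 points without wing disc replicate 1. *Idgf2* had 1.88, 1.55 and 1.56 in wing discs, at percentiles of 60.4, 59.1 and 59.1, against 66.8, 70.2 and 72.2 in Mock RNAi, a difference of -10.2 points (-10.6 without wing disc replicate 1). For both, all wing disc percentiles lay below all those of either BG3 group. The second *Idgf3* probe set, at 1.21, 0.73 and 0.92 in wing discs, differed from Mock RNAi by -8.11 points (-11.0 without wing disc replicate 1), both groups being in the lower mode.

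*Idgf6* had 3.62, 2.37 and 2.58 in wing discs and crossed the trough at 3.07 in replicate 1 alone. Its percentiles of 64.8, 61.7 and 62.2 in wing discs lay above the 58.3, 52.9 and 46.7 of Mock RNAi and overlapped with the 63.0, 61.7 and 61.1 of Ph RNAi. The difference from Mock RNAi was 10.2 points, and 9.31 points without wing disc replicate 1. *Idgf1* (0.81, 0.72 and 0.73) and *Idgf5* (0.63, 0.41 and 0.39) were near the lower peak of wing discs at 0.555, with percentiles that overlapped those of Mock RNAi. Their wing disc minus Mock RNAi differences were 2.89 and -4.49 points, and 1.13 and -13.0 points without wing disc replicate 1. All 3 wing disc percentiles were above all 3 of Mock RNAi for 26.5% of all probe sets and for 2 of 7 Idgf probe sets (*Idgf4* and *Idgf6*), and below them for 29% of all and for 3 of 7 (*Idgf2* and both of *Idgf3*). As wing disc levels took part in the choice, nothing is read from these counts either.

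**Figure D4:**
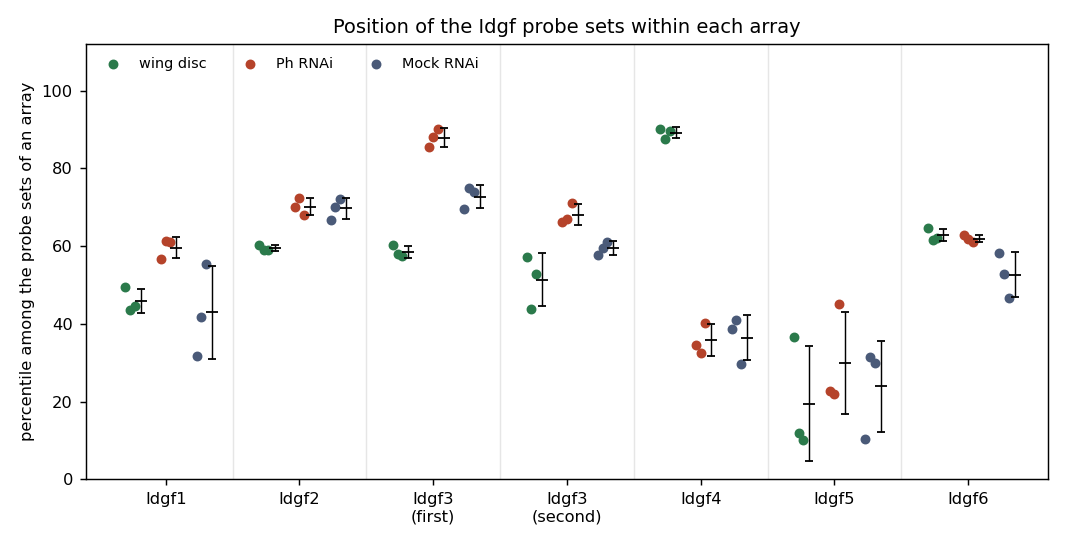
Percentile of each Idgf probe set among the probe sets of an array, in wing disc, Ph RNAi and Mock RNAi from left to right in each column, with points for arrays and bars for mean ± SD (n = 3 each). *Idgf4* stands at 87.5 to 90.2 in wing discs and at 29.8 to 40.9 in BG3 cells, and the first *Idgf3* probe set at 57.5 to 60.4 in wing discs and at 69.5 to 90.2 in BG3 cells.

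By mode, 1 of 6 Idgf genes (*Idgf4*) was in the upper mode in wing discs and the lower in Mock RNAi, as were 844 genes, or 7.04% of all. The reverse held for 2 of 6 (*Idgf2* and *Idgf3*) and for 353 genes, or 2.95%. These classes go by group means of 1 probe set per gene. The second *Idgf3* probe set was in the lower mode in Mock RNAi too (mean 2.76). *Idgf2* had Mock RNAi replicate 1 at 4.77, below the trough. The lower mode in both was the place of 3 of 6 (*Idgf1*, *Idgf5* and *Idgf6*) and of 49.5% of all genes. None of the 6 was in the upper mode in both, where 40.5% of genes lay. Wing disc levels took part in the choice of the family, so nothing is read from these counts. The member mean nearest a trough was 0.22 (log2) away, that of *Idgf6* in wing discs.

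The genes most like a member over the 6 BG3 arrays were taken by Pearson correlation among 1941 candidates, named genes whose values spanned at least 1 on the log2 scale. The likeness includes the difference between the groups and is a description. Over 6 arrays the highest of 1941 correlations are large by selection alone, so no link between genes is read from them. *Idgf3* was most like *tmod* (0.996), the actin filament capping protein tropomodulin, *Takl2* (0.988), a kinase gene, and *Nrg* (0.987), the cell adhesion protein neuroglian, whose own difference was 2.82. The likeness of *tmod* rests on 1 of its probe sets, with a difference of 0.82, while the mean of its probe sets gave 0.38 (limma adjusted p = 0.474). *Idgf6* was most like *lbm* (0.972), a tetraspanin of neurons, *zormin* (0.966), a muscle sarcomere protein, and *drm* (0.959), a zinc finger factor. *Idgf1* was most like *Leash* (0.975), *IP3K1* (0.972), an inositol phosphate kinase, and *Klp68D* (0.971), a kinesin. *Idgf2* was most like *RIOK1* (0.988), a kinase of ribosome assembly, *IFT20* (0.959), a protein of cilium transport, and *Rpt3R* (0.947), a proteasome ATPase gene, and none of these 3 was called. *Idgf4* and *Idgf5* spanned under 1 and were not matched. Both group means of *Idgf1*, *Idgf6*, *Takl2*, *zormin*, *drm* and *IFT20* were in the lower mode, where the order of values has little meaning.

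The chitinases share the fold of the Idgfs and cut chitin. Of all genes, 3.2% were called higher in Ph RNAi and 1.57% lower. Of 10 chitinases measured, 1 was called higher in Ph RNAi and 0 lower, with a median difference of 0.03 beside -0.03 over all genes. This was *Cht2*, at 10.44 ± 0.31 in Ph RNAi and 8.84 ± 0.41 in Mock RNAi (SD, n = 3 each), 3.03-fold higher (limma adjusted p = 0.00353). The other 9 had differences from -0.33 to 0.24. Of these, only *Cht11* was in the upper mode in BG3 cells, and the rest were in the lower mode of both groups, where GCRMA compresses differences. In wing discs 6 of 10 chitinases were in the upper mode, against 2 in Ph RNAi and 2 in Mock RNAi. Over all genes the shares in the upper mode were 47.5%, 43.7% and 43.4%. *Cht10*, *Cht5*, *Cht6* and *Cht7* had the arrangement of *Idgf4*, upper in wing discs and lower in Mock RNAi, with *Cht10* at the 98.4 percentile in wing discs and 19.5 in Mock RNAi. *Cht9*, *Cht11* and *Cht12* had lower mean percentiles in wing discs (51.8, 64.2 and 15.9) than in Mock RNAi (59.0, 73.3 and 38.4). None of them had the arrangement of *Idgf2* and *Idgf3*, since *Cht11* was in the upper mode in both materials and *Cht9* and *Cht12* in the lower mode in both.

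**Figure D5:**
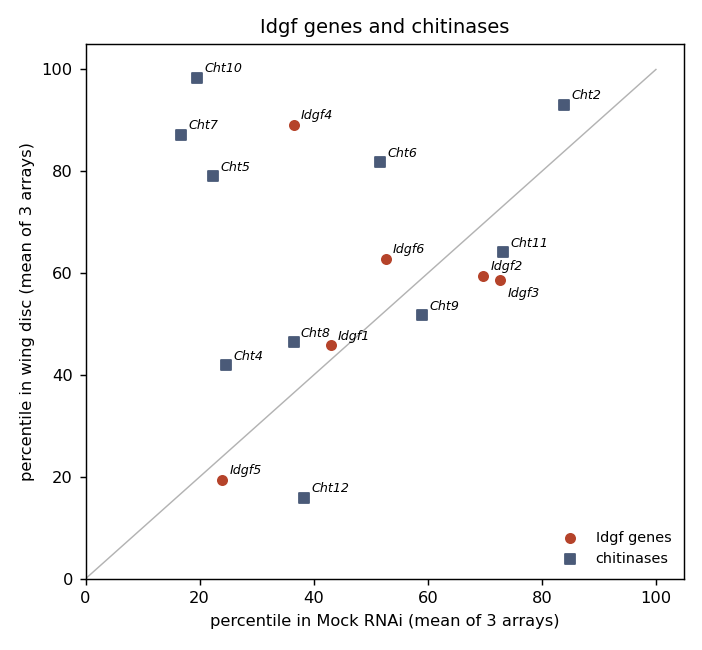
Mean percentile in wing disc (vertical axis) against Mock RNAi (horizontal axis) of the 6 Idgf genes (circles) and 10 chitinases (squares), with 3 arrays per mean and a line of equal percentiles. *Idgf4* (89.2 in wing disc, 36.5 in Mock RNAi) stands in the upper left with 4 chitinases, and *Idgf2* and *Idgf3* stand below the line.

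Other genes of the settings in which Idgfs are described were counted from the same fit. Over all genes, 3.2% were called higher and 1.57% lower. In the upper mode were 43.7% of all genes in Ph RNAi, 43.4% in Mock RNAi and 47.5% in wing discs. The lists were chosen with earlier results of these data known, so nothing is read from the counts of calls in any list. Idgfs protect the chitin matrix of cuticle. Of 17 genes of chitin synthesis and chitin matrix, 4 were in the upper mode in each BG3 group and 12 in wing discs. Their median difference of -0.00013 thus rests mostly on lower-mode values. Limma called 0 of them higher and 1 lower. It was *Hexo2*, a hexosaminidase, with a difference of -0.84 ± 0.19 (SE, adjusted p = 0.0326). Leaving out Ph RNAi replicate 2 or 3 or Mock RNAi replicate 1 or 2 gave adjusted p = 0.0986, 0.0756, 0.102 and 0.107, and limma without the variance trend gave 0.0553. Of 14 genes of the insulin pathway, with which Idgf proteins cooperate, limma called 0, with 3 at an unadjusted p under 0.05, and *InR*, the insulin receptor, had 1.06 ± 0.33 (SE, adjusted p = 0.121). Of 11 genes of adenosine and the adenosine deaminase growth factors, another family of secreted growth factors, 1 was called higher and 1 lower. *Adgf-A*, an adenosine deaminase of hemocytes, was 3.19-fold lower at 8.99 ± 0.97 in Ph RNAi and 10.66 ± 0.43 in Mock RNAi (SD, adjusted p = 0.0452). The call was lost without Ph RNAi replicate 2 (0.135) or 3 (0.164) or Mock RNAi replicate 1 (0.151), 2 (0.0518) or 3 (0.14). With all arrays it was also lost without the variance trend of limma (0.117), with a robust prior (0.0519), quantile normalization (0.0509) or the mean of probe sets (0.0562). *AdoR*, the adenosine receptor, was 1.55-fold higher (adjusted p = 0.0208) within the lower mode. It was not called with median centring (0.081), or without Ph RNAi replicate 1 (0.0672) or Mock RNAi replicate 2 (0.0699) or 3 (0.0958).

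Clot and wound genes, the setting of *Idgf3*, were called in both directions, beside 3.2% of all genes called higher and 1.57% lower. Of 12 genes of hemolymph clotting and melanization, 2 were called higher and 2 lower, with a median of 0.06. *Sp7*, a serine protease of melanization, was 3.97-fold higher (adjusted p = 0.00849), and *Tig*, an extracellular ligand of integrins, was higher by 1.84 ± 0.31 (log2, SE, adjusted p = 0.00542). *Spn27A*, a serpin that restrains melanization, was 4.58-fold lower (adjusted p = 0.00289), and *PPO3*, a prophenoloxidase, 2.16-fold lower (adjusted p = 0.0123, but 0.0554 without Ph RNAi replicate 1 and 0.0723 without replicate 3). Of 15 genes of the JNK wound response, 2 were called higher and 1 lower, with a median of 0.11. *cher*, the actin crosslinker filamin, was higher by 4.51 ± 0.28 (log2, SE, adjusted p = 3.90e-06). *Ets21C*, a transcription factor induced in wounds, was higher by 2.89 ± 0.66 (log2, SE, adjusted p = 0.0318). The Mock RNAi means of *cher* (2.32) and *Ets21C* (2.68) were in the lower mode. So were both means of *Tig* (4.32 in Ph RNAi, 2.48 in Mock RNAi) and of *PPO3*, and the Ph RNAi mean of *Spn27A*. The sizes of these changes thus depend on the background correction. *Ets21C* was not called after leaving out Ph RNAi replicate 2 or 3 or any Mock RNAi replicate (0.0699 to 0.112). With all arrays it was not called without the variance trend of limma (0.0999) or with a robust prior (0.0769). *wgn*, a receptor of the JNK ligand Eiger, was 1.92-fold lower (adjusted p = 0.0043).

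Markers of the cells that make or receive Idgfs were set beside the members. Of all genes, 47.5% were in the upper mode in wing discs, 43.7% in Ph RNAi and 43.4% in Mock RNAi. Called higher in Ph RNAi were 3.2% of all genes, and lower 1.57%. Of 14 hemocyte markers, 4 were in the upper mode in wing discs, 8 in Ph RNAi and 6 in Mock RNAi, and 1 (*He*) was called higher and 2 (*vkg* and *Ppn*) lower in Ph RNAi, with a median difference of 0.03. *He* was not called without Mock RNAi replicate 1 (0.0704), 2 (0.0629) or 3 (0.0692), nor *vkg* without Ph RNAi replicate 1 (0.117) or 2 (0.134) or Mock RNAi replicate 1 (0.144) or 2 (0.154). With all arrays, limma without the variance trend called neither *He* (0.0873) nor *vkg* (0.119). *He* was also not called with a robust prior (0.111), nor *vkg* with the mean of probe sets (0.0576). The summed level of the 14 was 10.6 to 10.7 in wing discs, 13.1 to 13.9 in Ph RNAi and 14.1 to 14.6 in Mock RNAi (log2). Without the 3 basement membrane genes *vkg*, *Col4a1* and *Ppn* it was 6.62 to 7.10 in wing discs, and 11.27 to 12.09 in Ph RNAi overlapped with 11.16 to 12.26 in Mock RNAi. In BG3 cells *crq* and *srp* weighed most in this sum, with means of 10.67 and 10.07 in Ph RNAi and 10.63 and 10.77 in Mock RNAi. The prophenoloxidase genes *PPO1* and *PPO2*, named after their values were seen, had differences of 3.49 and 1.58 and were not called (limma adjusted p = 0.184 and 0.394). *Hml* and *NimC1*, which define hemocytes, were in the lower mode in all 3 groups, while *srp*, a GATA factor of hemocytes and fat body, lay at the 56.7 percentile in wing discs, 90.9 in Ph RNAi and 93.8 in Mock RNAi. Of 7 fat body markers, 6 were in the upper mode in wing discs, but 3 without wing disc replicate 1, and 1 (*Col4a1*) in each BG3 group. Limma called 0 of them, with 2 at an unadjusted p under 0.05, and *Col4a1*, at -0.74 ± 0.19 (SE, adjusted p = 0.0564), was called without Ph RNAi replicate 3 (0.0202) or Mock RNAi replicate 3 (0.0493). Summed levels were 6.58 to 10.0 in wing discs, 11.5 to 12.1 in Ph RNAi and 12.1 to 12.6 in Mock RNAi, and in BG3 cells *Col4a1* made up nearly all of the sum. Without *Col4a1* they were 4.67 to 9.86 in wing discs, 5.31 to 5.38 in Ph RNAi and 5.01 to 5.14 in Mock RNAi, with the highest wing disc value in replicate 1. *Lsp2* was in the lower mode in Ph RNAi (1.83) and Mock RNAi (2.02), and at the 76.1 percentile in wing discs, against 27.0 in Ph RNAi and 39.7 in Mock RNAi.

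The labelled material was also checked, beside 3.2% of all genes called higher in Ph RNAi and 1.57% lower. The upper mode held 47.5% of all genes in wing discs, 43.7% in Ph RNAi and 43.4% in Mock RNAi. Of 11 glia markers, 4 were called higher in Ph RNAi and 0 lower. They were *repo*, the factor that defines glia, *nrv2*, *loco* and *Gli*. *Gli* (adjusted p = 0.0491) was not called without Ph RNAi replicate 1 (0.059), 2 (0.153) or 3 (0.132) or Mock RNAi replicate 1 (0.109) or 3 (0.13). With all arrays *Gli* was not called without the variance trend of limma (0.114), with quantile normalization (0.0555) or with the mean of probe sets (0.0588). The glia markers had summed levels of 11.0 to 11.1 in wing discs, 13.5 to 13.7 in Ph RNAi and 11.98 to 12.43 in Mock RNAi. Of 13 neuron markers, 2 were in the upper mode in each of the 3 groups and limma called 0, with 3 at an unadjusted p under 0.05. The lowest p was that of *nrv3*, at -1.71 ± 0.44 (SE, adjusted p = 0.0561), which was called in 6 of 13 settings, among them without Mock RNAi replicate 1 (0.00105), with the replicate block (0.00536) and with quantile normalization (0.0285). *elav* was in the upper mode and *nSyb* in the lower mode in all 3 groups. Of 15 wing disc markers, 13 were in the upper mode in wing discs, 5 in Ph RNAi and 2 in Mock RNAi, and 6 were called higher in Ph RNAi and 0 lower. The largest differences among the 6 were those of *dpp* (4.45), *tsh* (3.50), *nub* (3.09) and *zfh2* (2.25), whose Mock RNAi means were in the lower mode. The Ph RNAi mean of *zfh2* (4.38) was in the lower mode too. *vg*, the wing selector, was not among the 6 (limma adjusted p = 0.0889). It lay at the 94.3 percentile in wing discs, and at 60.1 in Ph RNAi and 47.1 in Mock RNAi, both below the trough. The part of these markers in the Idgf differences was not tested.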

How the data were processed

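The authors deposited 1 log2 value per probe set and array, made with GCRMA according to the submitters' processing notes, which give no version. GCRMA corrects background from probe sequence, which compresses weak signals, equalizes arrays processed together and summarizes each probe set. No background, slide or scan alternatives could be tried, since only these values were used. Of 18952 rows, 183 control rows and 1 blank row were left out. Of 18768 probe sets, the platform annotation gave 13647 a single symbol, 402 several and 4719 none. A total of 13544 matched a RefSeq gene number, which changed 0 symbols. Where a gene had several probe sets (1094 genes), the one of highest mean on all 9 arrays was used. All columns of the table were mapped to samples.

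The 3 Ph RNAi and 3 Mock RNAi arrays were compared in limma 3.58.1 (R 4.3.3; lmFit, then eBayes with trend), two-sided, with Benjamini-Hochberg adjustment over 11982 genes and calls at an adjusted p under 0.05. The study gives no test. Array number limits the precision. The procedure was tested on simulated data. Modes came from a density with a bandwidth of 0.3. Named were the Idgf probe sets, up to 4 called genes of each list with the largest differences or else the member with the smallest p, the 3 most correlated genes of each member and the neighbouring genes. The members and the gene lists were chosen with earlier results of these data known. Alternatives were another variance model, quantile normalization, median centring, other units, a filter on low values, leaving out each array, a replicate block and a fit of all 9 arrays. Marker sums without basement membrane genes, and the fat body count without wing disc replicate 1, were added after seeing the data.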

Additional observations from a re-analysis of the deposited data

How the results depend on the processing

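*Idgf3* was called higher under every alternative, with differences from 2.41 to 3.11 on leaving out 1 array, 2.65 with median centring and 2.84 with quantile normalization. No difference of the family with a call changed sign. Median centring lowered every difference, and so the median over all genes, by 0.18 (log2). It took *Idgf4* to -0.20 and *Idgf5* to -0.087 and the calls over all genes to 339 higher and 507 lower, against 384 and 188. On leaving out 1 array the genes called lower ranged from 88 to 158, those called higher from 266 to 378, and the Idgf genes called higher from 1 to 2. The fit of all 9 arrays called 497 genes lower and *Idgf1* in place of *Idgf6*. The filter on low values, which removed *Idgf1*, *Idgf4*, *Idgf5* and *Idgf6*, left 254 genes and 1 Idgf gene called higher. Of the gene lists, 17 genes were called higher and 7 lower. The higher count was 9 with the filter, and the lower count was 4 without the variance trend, 13 with median centring, 12 with all 9 arrays and from 4 to 7 on leaving out 1 array. Same-numbered Ph RNAi and Mock RNAi arrays deviated from their group means with correlations of 0.161, 0.162 and -0.174, so the numbers were not taken as pairs. With the replicate block 503 genes were called higher and 263 lower, with 3 Idgf genes higher (*Idgf1* among them) and 11 list genes lower. Among probe sets with 1 symbol the wing disc minus Mock RNAi percentile difference was -12.4 for *Idgf2* and -17.2 for the first *Idgf3* probe set, which had -17.1 among genes. The cause of these shifts was not tested. Of the values computed under alternatives, 202 stayed close to the reported one, 5 moved, 5 counts grew and 11 shrank. A log2 difference counted as close when it stayed within the pooled SD, and a reversal was counted only for members with a call, with 0 found. Members without a call did change sign. *Idgf2* went from 0.19 to -0.058 without Ph RNAi replicate 2 and to -0.31 without Mock RNAi replicate 1. The wing disc minus Mock RNAi percentile difference of *Idgf1* went from 2.89 to -2.70 without Mock RNAi replicate 1. Signals near the lower mode limit what can be said of *Idgf1*, *Idgf4*, *Idgf5* and *Idgf6* in BG3 cells.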
